A study of Nasonia vitripennis with 79 samples.

Results

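Heads and abdomens of F3 diploid males of the parasitoid wasp Nasonia vitripennis were compared gene by gene. The 10 libraries, 5 of heads (D11 to D15) and 5 of abdomens (D16 to D20), were chosen by their column names in the count table and are 10 of the 79 libraries in the series. In this species males normally develop from unfertilised eggs and carry 1 chromosome set, whereas females are diploid. The WOM polyploid line, raised after RNA interference against a sex determination gene, also yields males with 2 sets. The F3 diploid males were sampled 1 day after emergence, and RNA was extracted from the dissected tissue.

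The tissue difference in these wasps was set against the same difference in F3 haploid males of the line (ploidy differs, generation is the same) and in F15 diploid males (generation differs, ploidy is the same). Both comparison groups had 5 head and 5 abdomen libraries, were of the same age, and share no library with the F3 diploid males or with each other. Nothing in the sources states the origin of replicate libraries (animal, pool or culture), and the p-values reflect only how much these libraries vary, in part perhaps for technical reasons. In bulk tissue, fewer cells of a type and less RNA per cell cannot be told apart.

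As background, an insect head holds the brain, the compound eyes and the antennae, so transcripts of vision, olfaction and neural signalling are abundant there. A male abdomen holds the testes and accessory glands, much of the gut and most of the fat body. Fat body cells make haemolymph proteins and store lipid, and the nearby oenocytes make the hydrocarbons that coat the cuticle. Both tissues contain cuticle and muscle.

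Levels are CPM, read counts scaled to library size TMM over all 40 male libraries, and are compared between tissues within a gene. TPM also corrects for transcript length, but was not scaled by TMM between libraries. It is used for comparisons with females and as an alternative scale. Rankings of genes by CPM and sums over lists are not corrected for length. A log2 difference is heads minus abdomens, so that positive values are higher in heads, and is given ± SE. Calls were made by edgeR's quasi-likelihood test, with p adjusted by Benjamini and Hochberg's method over all 11981 genes tested and a threshold of 0.05.

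The libraries held 17.2 to 24.5 M counts, and each tissue was clearly separate from the other. Pearson's r of log2 CPM ran from 0.972 to 0.986 between abdomens and from 0.703 to 0.759 between a head and an abdomen. It ran from 0.981 to 0.991 between 4 of the heads, but only from 0.886 to 0.896 between D13 and those 4. In D13 the 10 most abundant genes took 11.3% of the counts, against 5.03% to 6.64% in the other heads, and 11530 genes were detected, against 12378 to 12564. D13 held 340 genes at least 4-fold above and 507 genes at least 4-fold below the mean of the other heads. What sets this library apart was not tested.

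**Figure D1:**
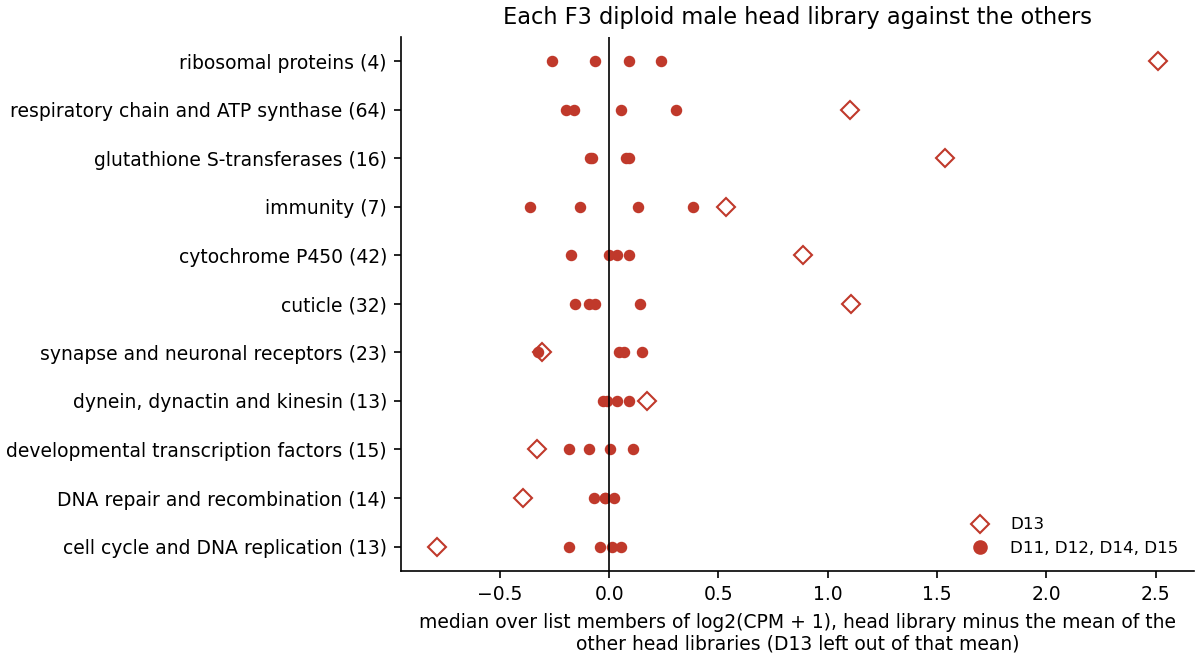
Median over the members of each gene list of log2(CPM + 1) in 1 F3 diploid male head library minus the mean of the other heads, with D13 left out of that mean; diamonds mark D13 and the number of genes is in brackets. The ribosomal protein list lies 2.51 above in D13 and the cell cycle list 0.78 below, whereas the list medians of the 4 other heads lie between -0.36 and 0.38.

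The head markers Lop1 and Pdf followed the tissue labels. The opsin Lop1, a photoreceptor pigment, ran from 2342 to 8580 CPM in the heads and from 0.0544 to 0.535 CPM in the abdomens. The neuropeptide Pdf, a signal of circadian clock neurons, ran from 88 to 338 CPM in the heads and was at or below 0.514 CPM in every abdomen. Over the 3 genes of phototransduction and the eye, the summed level was 2344 to 8587 CPM in heads and 1.09 to 3.5 CPM in abdomens, with no gene at 0 in all abdomens. Lop1 made up nearly all of the sum in heads. The female germ line gene oskar, which organises germ plasm in insect eggs, was at 2.01 TPM on average in the male abdomens, against 734 TPM in the abdomens of F14 diploid females. In the F3 diploid male heads oskar averaged 9.79 TPM, above the male abdomens. It was the 1 germ line gene tested and was called higher in heads (log2 difference 1.95). Testis, yolk and chorion genes carried no symbols that could be matched and were not scored.

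Most genes differed between the tissues. Of the genes tested, 7933 (66.2%) were called: 4042 (33.7%) higher in heads and 3891 (32.5%) higher in abdomens. The shares of 33.7% and 32.5% are the background for the gene list counts below. Without D13 the counts were 4083 and 4291. In 5299 genes (44.2%) the 5 head libraries did not overlap the 5 abdomen libraries, 2442 (20.4%) with the heads higher and 2857 (23.8%) with the abdomens higher. Calls with a difference of at least 2-fold numbered 5161 (43.1%). On TPM, 5068 genes were called higher in heads and 3033 higher in abdomens, so that 62.6% of calls were higher in heads against 51% in the count test. The median gene lay 0.28 towards heads on that scale and 0.04 in the count test.

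At steeper thresholds more genes lay on the abdomen side. At 4-fold or more there were 1286 genes higher in heads and 1680 higher in abdomens, at 8-fold or more 732 and 1125, and at 32-fold or more 149 and 592. Fitted values of genes at 0 in a tissue depend on a prior count; with those genes set to a floor of 3 counts per library the counts at 8-fold became 704 and 1094, and that of abdomen genes at 32-fold became 531. Detection in a single tissue was likewise found for more genes in abdomens. A level of at least 1 CPM in every abdomen with no count in any head was found for 83 genes, and the reverse for 6. None of these loci has a symbol beyond a LOC identifier.

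Of the 592 genes at least 32-fold higher in abdomens, 586 had the same call in F3 haploid males, 582 in F15 diploid males and 555 in F15 haploid males. For the 149 head genes these counts were 130, 130 and 132. Over all genes called higher in abdomens the same call was made in 89.2%, 86.5% and 78.4%, and over those higher in heads in 81.2%, 77.5% and 74.1%. In the abdomens of F14 diploid females, 450 of the 592 were at under 10% of their F3 diploid male TPM, with a median ratio of 1.53%. In the abdomens of F2 triploid females 544 were under 10%. Of the 149 head genes, 21 were at under 10% of the male level in the heads of F14 diploid females, where the median ratio was 92.7%. The female groups differ from the F3 diploid males in generation as well as sex, and the triploids also in ploidy. Both gene sets were chosen by their high level in these same male libraries, which favours low ratios elsewhere. The share of all genes under 10% was not computed, so no conclusion is drawn from these ratios.

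**Figure D2:**
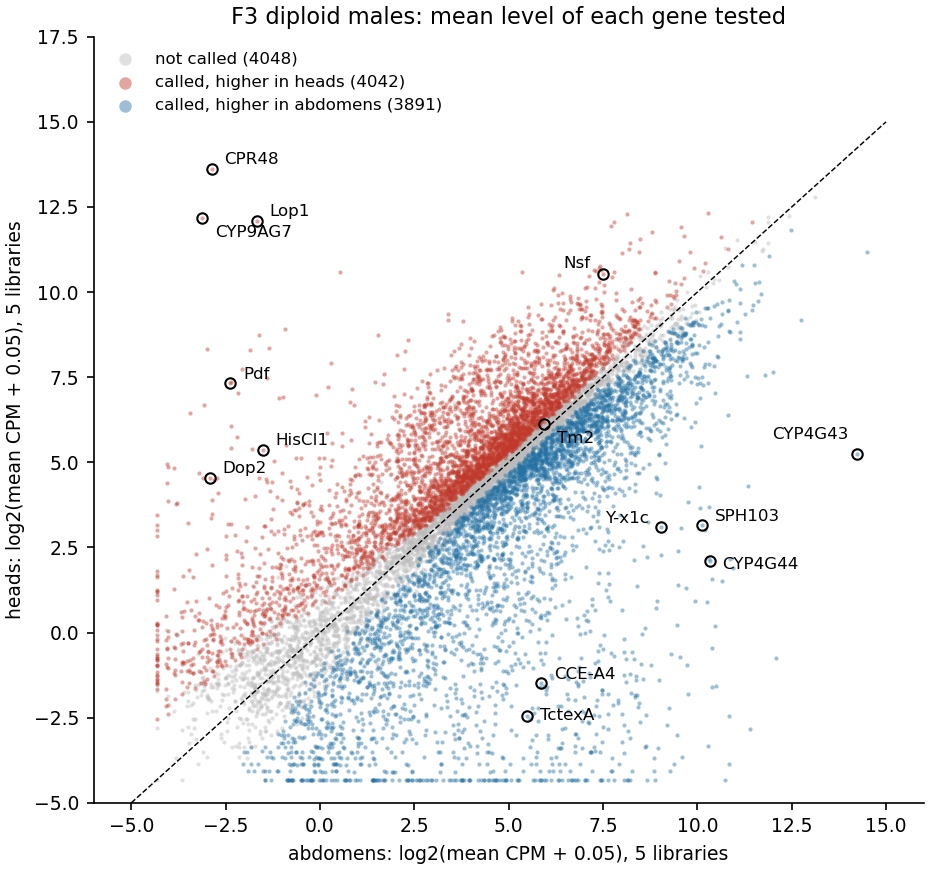
Mean level of each gene tested in the 5 abdomens (x axis) and the 5 heads (y axis) of F3 diploid males, as log2(mean CPM + 0.05); red and blue mark genes called higher in heads or in abdomens, grey marks genes not called, and the dashed line marks equal levels. The 4042 and 3891 called genes lie on either side of the line, with CPR48, Lop1 and CYP9AG7 far above it and CYP4G43, CYP4G44 and TctexA far below.

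Among well-expressed genes (20 CPM or more on average), 2 loci that had no count in any head stood at the far end of the abdomen side. LOC100119680 ran from 1510 to 2135 CPM in the abdomens and had no count in the 5 heads. Its abdomen mean was at least 9851-fold higher than the largest head floor of 0.174 CPM. LOC100116567 ran from 236 to 990 CPM in the abdomens, again with no count in a head, which is at least 2696-fold higher. In F14 diploid female abdomens these loci averaged 0.084 and 64.7 TPM, against 1912 and 519 TPM in the F3 diploid male abdomens. On the head side, LOC100679671 ran from 12.7 to 56.9 CPM in heads and had a single non-zero abdomen, at 0.0486 CPM.

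Most genes of neural signalling and the opsin Lop1 were far higher in heads. Of 23 genes of the synapse and of neuronal receptors, 20 were higher in heads, 1 was higher in abdomens and 2 were not called, with a median log2 difference of 2.75 against 0.04 over all genes. Of 3 genes of phototransduction and the eye, 2 were higher in heads. Without D13 the synapse list had 21 genes higher in heads and 1 higher in abdomens.

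Lop1 was at 3636, 2736, 8580, 4670 and 2342 CPM in heads D11 to D15 and at 0.159, 0.0935, 0.535, 0.0544 and 0.474 CPM in abdomens D16 to D20. The tissues were separated by more than 3 orders of magnitude, with D13 the highest head. The log2 difference was 13.97 ± 1.51 (adjusted p = 4.8e-10), and 13.58 without D13. The other called eye gene, white, a transporter of eye pigment precursors in Drosophila, was scarce in both tissues, at a mean of 0.727 CPM in heads and 0.0486 CPM in abdomens.

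HisCl1 encodes a chloride channel gated by histamine, the transmitter of insect photoreceptors. It was at 44.3, 54.3, 35.7, 27.1 and 46.1 CPM in the heads and at 0.318, 0.654, 0.146, 0 and 0.379 CPM in the abdomens, a log2 difference of 7.06 ± 0.57 (adjusted p = 3.8e-13). The dopamine receptor gene Dop2 was as sharply divided, at 20.8 to 28.6 CPM in heads and 0.0467 to 0.212 CPM in abdomens (8.09 ± 0.64, adjusted p = 3e-13; 8.74 without D16, the highest abdomen). Its head values spread little, and D13 was the highest.

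Genes of synaptic vesicle release stayed well above 0 in the abdomen. Syt1, the calcium sensor of vesicle fusion, was at 901, 1075, 448, 663 and 890 CPM in heads and at 119.1, 106.4, 118.2, 131 and 121 CPM in abdomens. The lowest head, D13, was still more than 3 times the highest abdomen. The log2 difference was 2.74 ± 0.19 (adjusted p = 6.6e-15). Nsf, the ATPase that recycles the fusion machinery, was at 1561, 1834, 544, 1429 and 1965 CPM in heads and at 171 to 200 CPM in abdomens (3.02 ± 0.19, adjusted p = 1.3e-15), and D13 was again the lowest head.

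Receptor and channel subunits followed the same direction with few exceptions. The nicotinic acetylcholine receptor subunit genes nAChRa1 (3.78 ± 0.34), nAChRa8 (3.68) and nAChRa11 (3.21 ± 0.20) were called higher in heads, as were the sodium channel gene Para (2.83), the glutamate-gated chloride channel gene GluCl (3.01 ± 0.36) and the G protein subunit gene Gnao (3.66). The subunit gene nAChRa9 was the exception towards the abdomen: it averaged 2.56 CPM there, and the heads had no count. The subunit genes nAChRa3 (0.89, adjusted p = 0.1) and nAChRb3 (-0.17, adjusted p = 0.72) were not called by edgeR's quasi-likelihood test, the first of them being called without D13 (1.18, adjusted p = 0.015). Pka-C1, the catalytic subunit of cyclic AMP-dependent kinase, was at 76.9 to 221 CPM in heads and 23 to 28.9 CPM in abdomens (2.73 ± 0.36, adjusted p = 2.9e-08).

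**Figure D3:**
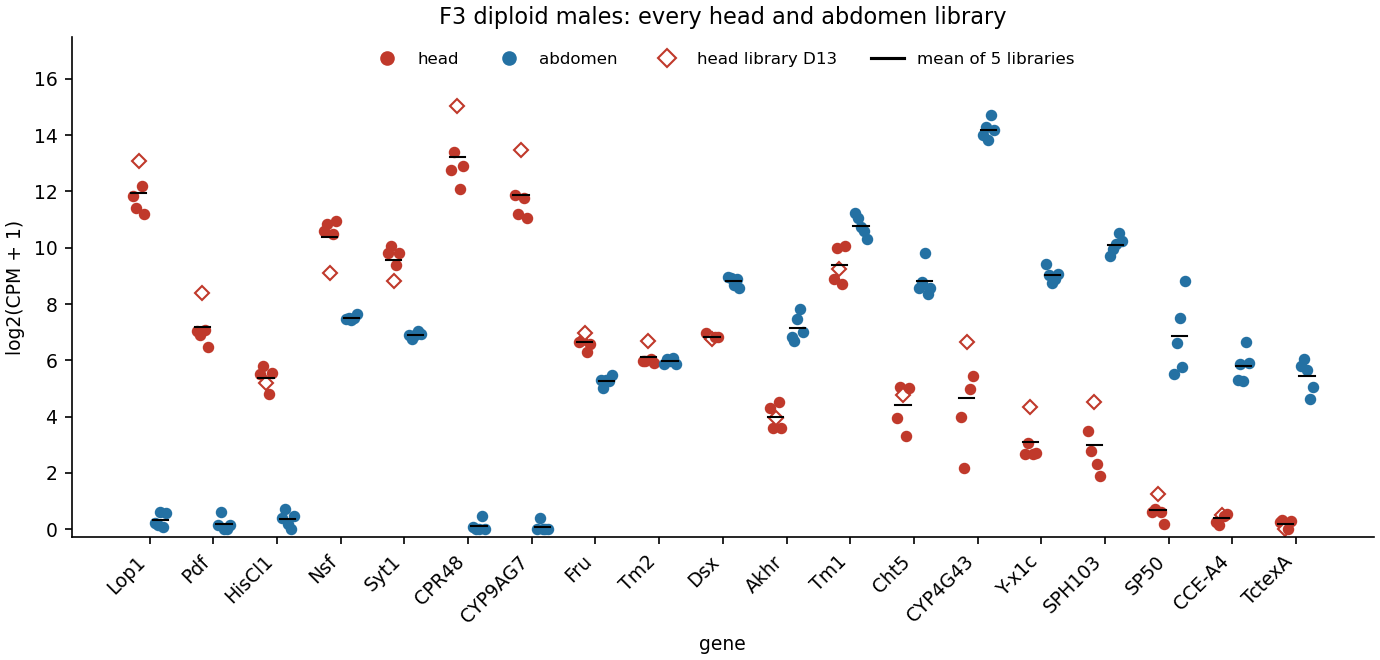
Level of 19 genes in every F3 diploid male library, as log2(CPM + 1); red points are heads, blue points abdomens, open diamonds the head library D13, and bars the mean of 5 libraries. Heads and abdomens do not overlap for any of these genes but Tm2, and D13 is the highest head for Lop1, CPR48 and CYP9AG7 and the lowest for Nsf and Syt1.

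Neuropeptide and hormone genes lay on both sides. Of 6 tested, 3 were higher in heads and 2 in abdomens, where 33.7% and 32.5% of all genes were. Their median was 1.97, and -0.11 without D13, when 7 were tested. Pdf was at 129, 117.5, 338, 133 and 88 CPM in heads and at 0.106, 0.514, 0, 0 and 0.0947 CPM in abdomens (10.03 ± 0.94, adjusted p = 1.6e-11; 11.48 without abdomen D17). ACP, the adipokinetic hormone/corazonin-related peptide, ran from 19 to 23.3 CPM in 4 heads and reached 148 CPM in D13, against 1.03 to 3.41 CPM in abdomens. Its log2 difference was 4.29 ± 0.57 (adjusted p = 4.1e-08) and 3.19 without D13. The receptor gene of that peptide, Acpr, was at 103.8 to 154 CPM in heads and 6.31 to 10.1 CPM in abdomens (4.19 ± 0.27, adjusted p = 1.8e-15).

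The receptor of adipokinetic hormone itself lay on the abdominal side. This hormone mobilises fat body stores, and its receptor gene Akhr was at 18.7, 11.1, 14.3, 21.9 and 11 CPM in heads and at 112.3, 101.2, 175, 224 and 128 CPM in abdomens. The log2 difference was -3.27 ± 0.27 (adjusted p = 8.7e-13), and every abdomen was at least 4 times any head. CYP314A1, which converts ecdysone to its active form, ran from 59 to 112.7 CPM in abdomens and from 10.4 to 17 CPM in heads (-2.57 ± 0.31, adjusted p = 5.2e-09). The ecdysone receptor gene Ecr was not called by edgeR's quasi-likelihood test, at 46 CPM in heads and 55.2 CPM in abdomens (-0.26, adjusted p = 0.24).

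Chemoreceptor genes were called in both directions. Of 214 annotated odorant receptor genes 92 passed the filter on low counts, and 21 of those were higher in heads and 9 higher in abdomens. These are 30 of 92, where 66.2% of all genes were called. Without D13 the counts were 14 and 8, and with only the 10 libraries in the fit 31 were tested, 8 and 2 being called. The summed level of the list ran from 42 to 199 CPM in heads and from 35.8 to 70.2 CPM in abdomens, so the tissues overlapped. The best separated was Or296, at 5.77 to 10.4 CPM in heads and 0.477 to 1.22 CPM in abdomens (3.20 ± 0.44, adjusted p = 8.8e-08). Of 46 gustatory receptor genes 16 were tested, 6 of them higher in heads and 5 in abdomens, where 33.7% and 32.5% of all genes were. The median was -0.11 in the count test and 0.04 on TPM. Without D13 3 were called higher in heads, and with only the 10 libraries in the fit 8 were tested, 2 and 3 being called. Gr2 was the most abundant of those higher in abdomens, at 9.35 to 18.8 CPM there and 1.95 to 6.41 CPM in heads (-1.92 ± 0.38, adjusted p = 4e-05). Neither of the 2 odorant-binding protein genes tested was called by edgeR's quasi-likelihood test, and 1 was called higher in heads on TPM.

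Cuticle genes were divided evenly, 12 of 32 tested being higher in heads and 12 in abdomens, with a median of 0.17, and 11 and 12 without D13. These shares lie near those over all genes, 33.7% and 32.5%. Some cuticle genes were abundant in a single tissue. CPR48, a cuticle protein gene with the Rebers and Riddiford chitin-binding motif, was at 6911, 10736, 33723, 4309 and 7629 CPM in heads and at 0.053, 0, 0, 0.381 and 0 CPM in abdomens. This was the steepest difference towards heads among the named genes, with D13 the highest head (17.16 ± 1.63, adjusted p = 2.2e-11; 16.39 without D13). On the length-corrected scale CPR48 averaged 66983 TPM in these heads, compared with 38.5 TPM in the heads of F14 diploid females. Those females differ in generation as well as sex. Between males, heads averaged 12662 CPM in F3 diploids, 439 CPM in F15 diploids and 349 CPM in F15 haploids.

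The abdomen had other members of the family. CPR19 was at 873 to 1919 CPM in abdomens and 51.4 to 295 CPM in heads (-2.95 ± 0.35, adjusted p = 2.9e-09), and CPR18 at 130 to 355 CPM and 13.2 to 25.1 CPM (-4.01 ± 0.37, adjusted p = 8.5e-12). Cht5, a chitinase that degrades old cuticle during the moult, was at 375, 441, 907, 329 and 380 CPM in abdomens and at 8.85 to 31.9 CPM in heads (-4.43 ± 0.46, adjusted p = 1.6e-10). For none of these 3 genes did an abdomen overlap a head.

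Cytochrome P450 genes were mostly higher in abdomens: 27 of 42 tested, with 6 higher in heads and a median of -1.63. Without D13 the counts were 30 and 4. CYP4G genes encode the oenocyte enzymes that make cuticular hydrocarbons. CYP4G43 was at 16338, 19948, 14725, 26847 and 18431 CPM in the abdomens and at 14.7, 3.54, 98.7, 30.5 and 42.7 CPM in the heads. Even the lowest abdomen was more than 100 times the highest head, D13 (-8.98 ± 0.79, adjusted p = 3.1e-12; -9.72 without D13). CYP4G44 repeated the pattern at a lower level, with 820 to 1790 CPM in abdomens and 2.13 to 6.19 CPM in heads (-8.23 ± 0.55, adjusted p = 3.7e-15). CYP4G43 averaged 13236 TPM in the F3 diploid male abdomens and 963 TPM in those of F14 diploid females.

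CYP9AG7 ran against the family. It was at 3747, 2339, 11401, 3463 and 2124 CPM in heads, whereas 4 abdomens had no count and D17 had 0.327 CPM (15.91 ± 1.89, adjusted p = 3.8e-09; 15.25 without D13). Fitted differences of genes this close to 0 in abdomens rest on very few counts: without D17 the value for CYP9AG7 was 19.60, and without D19 that for CPR48 was 19.42. In heads of F14 diploid females CYP9AG7 averaged 0.048 TPM, against 5500 TPM in the F3 diploid male heads.

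Other detoxification enzymes were also mostly abdominal. Of 13 carboxylesterase genes tested, 9 were higher in abdomens and 1 in heads, with a median of -2.52. CCE-A4 was at 37.2 to 100 CPM in abdomens and 0.0969 to 0.455 CPM in heads (-7.54 ± 0.55, adjusted p = 3.2e-14). The difference of CCE-D5 rested on D18: it was at 175 CPM there and at 2.39 to 4.45 CPM in the other 4 abdomens, against 0 to 1.75 CPM in heads (-5.34 ± 1.01, adjusted p = 2e-05), and the value without D18 was -1.96 (adjusted p = 0.017).

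Of 16 glutathione S-transferase genes, 9 were higher in abdomens and 2 in heads, with a median of -0.93. Without D13 the first count was 12. GstS2 was at 64.1 to 197 CPM in abdomens, at 2.28 to 5.63 CPM in 4 heads and at 36.8 CPM in D13 (-3.83 ± 0.51, adjusted p = 4e-08; -5.22 without D13). GstS5 showed how far that library can move a value. It was at 82.5 to 94.4 CPM in 4 heads, 461 CPM in D13 and 145 to 183 CPM in abdomens. With all heads it was not called by edgeR's quasi-likelihood test (0.06, adjusted p = 0.89), and without D13 it was called higher in abdomens (-0.85, adjusted p = 0.00067).

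Secreted proteases were higher in abdomens, in 22 of 38 serine protease and protease homolog genes tested, whereas 4 were higher in heads, with a median of -1.61. Without D13 the counts were 23 and 5. SPH103, a protease homolog, a class that lacks catalytic activity, was at 842, 988, 1109, 1470 and 1209 CPM in abdomens and at 10.3, 5.91, 21.8, 3.97 and 2.68 CPM in heads (-6.97 ± 0.58, adjusted p = 9.3e-13; -7.62 without D13). SP50 was at 44.3, 97.8, 180, 53.2 and 455 CPM in abdomens and at 0.136 to 1.39 CPM in heads (-8.00 ± 0.79, adjusted p = 6e-11; -7.17 without D20). SP49, SP102 and SP132, for which D20 was likewise the highest abdomen and D18 the next, lay at -8.49 ± 1.04, -7.79 ± 0.85 and -7.88 ± 0.67. SP49 was at -7.50 without D20, and SP102 at -9.72 without D13. Among those higher in heads was SP120, at 68.9 to 129 CPM in 4 heads, 486 CPM in D13 and 3.02 to 10.7 CPM in abdomens (4.69 ± 0.48, adjusted p = 1e-10; 3.75 without D13).

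Haemolymph, storage and immune proteins followed the abdomen too, the side on which 32.5% of all genes were called. Among 4 storage genes 3 were higher in abdomens, including the hexamerin genes Hex70b (-3.78 ± 0.48) and Hex109 (-1.57 ± 0.32), amino acid stores of the haemolymph, and Lsd2, a lipid droplet protein of the perilipin family. Lsd2 was at 658 to 1191 CPM in abdomens and 207 to 592 CPM in heads (-1.20 ± 0.29, adjusted p = 0.00056). Of 7 immune genes 6 were higher in abdomens, and 5 without D13. With only the 10 libraries in the fit 4 of 6 tested were. Gnbp1-2, a recognition protein of bacterial and fungal cell walls, was at 45.2 to 96.6 CPM in abdomens, 4.56 to 6.41 CPM in 4 heads and 23.3 CPM in D13 (-2.71 ± 0.31, adjusted p = 2.2e-09; -3.40 without D13). The defensin gene Def1-2 was also called (-1.78 ± 0.64, adjusted p = 0.015), although its tissues overlapped and the call was lost without abdomen D18 (-1.23, adjusted p = 0.094) and with only the 10 libraries in the fit (adjusted p = 0.057), while the value without D13 was -2.44. The other direction was taken by the prophenoloxidase gene ppo3, of the melanisation pathway, at 4.09 CPM in heads and 0.31 CPM in abdomens (3.70, adjusted p = 1.6e-07), while its paralog ppo1 was higher in abdomens (-2.67 ± 0.62).

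Yellow and royal jelly-like genes were higher in abdomens in 9 of 14 cases and in heads in 3, with a median of -1.41. Y-x1c was at 689, 521, 427, 469 and 533 CPM in abdomens, 5.3 to 7.41 CPM in 4 heads and 19.1 CPM in D13 (-5.95 ± 0.50, adjusted p = 1.2e-12). Mrjpl5 was at 198 to 384 CPM in abdomens and 6.95 to 46.6 CPM in heads (-3.95 ± 0.36, adjusted p = 8.3e-12; -4.60 without D13). Y-y, Y-f and Y-e were the 3 higher in heads, Y-f at 52.4 to 89.9 CPM against 14.8 to 21 CPM (1.76 ± 0.22, adjusted p = 1.6e-08). Counts for this list did not change without D13.

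Genes of the respiratory chain and ATP synthase were called higher in heads in 54 of 64 cases, with 2 higher in abdomens and a median of 0.73. This count rested partly on D13, without which 30 were higher in heads and the median was 0.32. With only the 10 libraries in the fit 28 were. The list's members lay a median of 1.10 above the other heads in D13 on the log2 scale, and their summed level ran from 16269 to 41437 CPM in heads and from 12308 to 18012 CPM in abdomens. Ndufa8, a complex I subunit, kept its difference, with 237 to 422 CPM in heads and 78.3 to 153 CPM in abdomens (1.57 ± 0.19, adjusted p = 4e-09; 1.43 without D13). The cytochrome c oxidase genes Cox7a1 and Cox6c were the 2 in the other direction. Cox7a1 was at 31.3, 24, 18.2, 4.57 and 15.6 CPM in abdomens and at 0.0977 to 1.3 CPM in heads (-5.24 ± 0.68, adjusted p = 2.3e-08; -6.02 without D13). It averaged 119.1 TPM in the F3 diploid male abdomens and 0.15 TPM in F14 diploid female abdomens.

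All 4 ribosomal protein genes matched by symbol were called higher in abdomens, with a median of -0.84 and of -1.82 without D13. With only the 10 libraries in the fit these calls were lost (edgeR, adjusted p from 0.093 to 0.29). Rpl6 was at 592 to 811 CPM in abdomens, 176 to 253 CPM in 4 heads and 1217 CPM in D13, above every abdomen. Its log2 difference was -0.79 ± 0.31 (adjusted p = 0.024), and -1.72 without D13 (adjusted p = 1.3e-11). The call was lost without any single one of the other heads (adjusted p from 0.073 to 0.085). The translation elongation factor gene EF-1a was at 2604 to 3328 CPM in abdomens and 932 to 2119 CPM in heads (-1.26 ± 0.24, adjusted p = 2e-05). Ogt, which attaches N-acetylglucosamine to intracellular proteins, was at 1424 to 1918 CPM and 426 to 757 CPM (-1.30 ± 0.14, adjusted p = 3.6e-10).

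**Figure D4:**
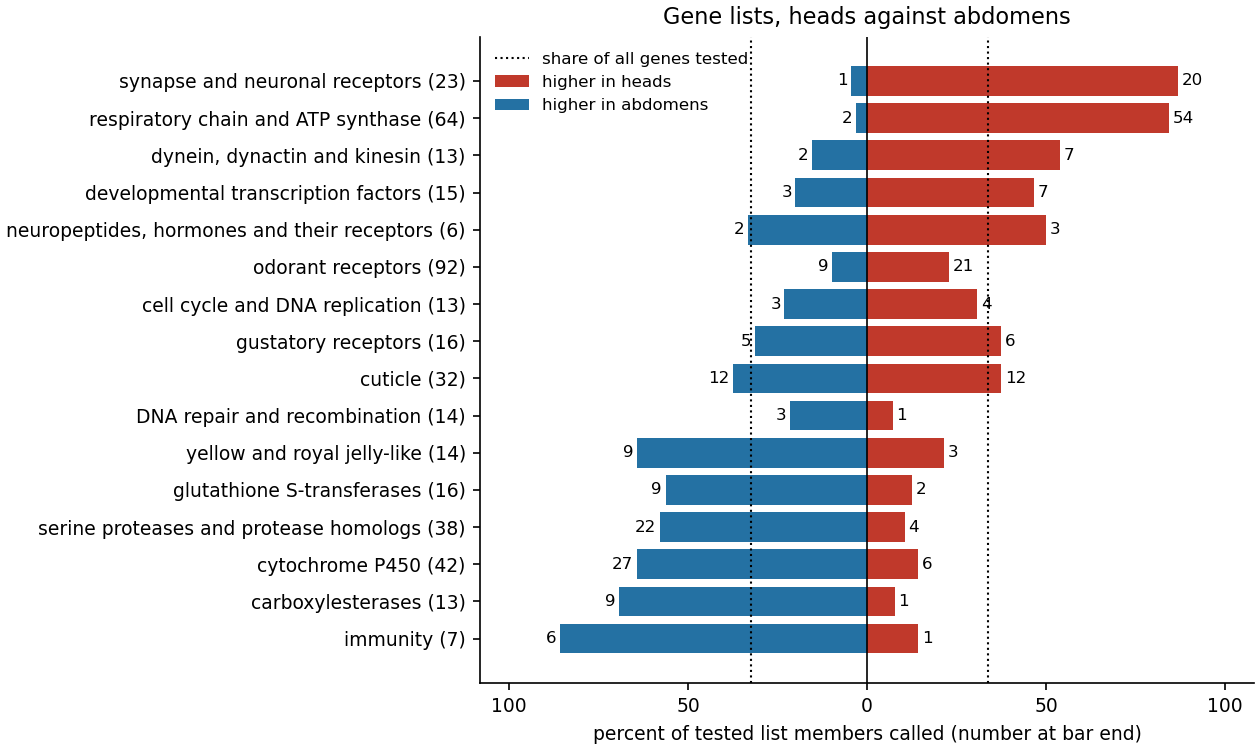
Share of the tested members of each gene list with at least 5 tested genes that was called higher in heads (red, to the right) or in abdomens (blue, to the left), in percent, with the number of genes at the end of each bar and the tested genes in brackets; dotted lines mark the shares over all genes, 33.7% and 32.5%. Synapse genes (20 of 23) and respiratory chain genes (54 of 64, and 30 without D13) lie towards heads, and immune genes (6 of 7, and 5 without D13) and carboxylesterases (9 of 13) towards abdomens.

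Motor protein genes showed a marked contrast within a family. Of 13 dynein, dynactin and kinesin genes 7 were higher in heads and 2 in abdomens, where 33.7% and 32.5% of all genes were. Their median was 0.34. TctexA, a dynein light chain gene of the Tctex family, was at 54.8, 65.3, 49, 23.7 and 32.3 CPM in abdomens and at 0 to 0.242 CPM in heads (-8.35 ± 0.64, adjusted p = 1e-13). Its relative Tctex1 averaged 52.7 CPM in heads and 40.5 CPM in abdomens (0.38, adjusted p = 0.016). The kinesin gene kinesin-2B ran from 143 to 171 CPM in heads and from 22.8 to 29.1 CPM in abdomens (2.60 ± 0.13, adjusted p = 3.9e-18).

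Genes of cell division were called in both directions. Of 13 tested, 4 were higher in heads and 3 in abdomens, where 33.7% and 32.5% of all genes were. Without D13 the counts were 7 and 3. In D13 the list's members lay a median of 0.78 below the other heads on the log2 scale. Cyclin B, the mitotic cyclin, was at 2.12 to 9.64 CPM in abdomens and 0 to 0.591 CPM in heads (cycB, -3.70 ± 0.81, adjusted p = 0.00014). The anaphase activator gene fzy was also higher in abdomens (-2.42 ± 0.33, adjusted p = 9.2e-08). Cenp-a, the centromeric histone gene, took the other direction, at 25.4 to 41.8 CPM in 4 heads, 5.2 CPM in D13 and 3.4 to 8.48 CPM in abdomens (2.25 ± 0.34, adjusted p = 3.9e-07). Of 14 genes of DNA repair and recombination 1 was higher in heads and 3 in abdomens (2 and 3 without D13), and their median changed sign from -0.01 to 0.31 on TPM.

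Developmental transcription factors were called in both directions. Of 15 tested, 7 were higher in heads and 3 in abdomens, where 33.7% and 32.5% of all genes were. Cad, the homolog of Drosophila caudal, a factor of the posterior body and gut, was at 2.83 to 7.73 CPM in abdomens and at or below 0.5 CPM in heads (-4.93 ± 0.60, adjusted p = 5.4e-09; -5.80 without D15). Scr, the Hox gene of the mouthparts and anterior thorax in Drosophila, averaged 4.96 CPM in heads and 0.413 CPM in abdomens (3.55, adjusted p = 0.00014). Prospero, a factor of neuron and glia differentiation in Drosophila, was at 50.7 to 67.1 CPM in 4 heads but at 5.47 CPM in D13, within the abdomen range of 5.44 to 10.6 CPM (pros, 2.54 ± 0.38, adjusted p = 3.5e-07).

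Sex determination genes differed by tissue in both directions. Dsx, the doublesex transcription factor at the end of the pathway, ran from 107.9 to 124 CPM in heads and was at 495, 490, 410, 470 and 378 CPM in abdomens. Both tissues were tight and did not overlap (-1.98 ± 0.13, adjusted p = 3.3e-15). Fru, the fruitless gene of male courtship circuits in Drosophila, was at 77.3 to 126 CPM in heads and 31 to 43.8 CPM in abdomens (1.41 ± 0.25, adjusted p = 7.4e-06). Tra, the splicing factor gene transformer, was at 43 to 52.2 CPM in 4 heads, 101.7 CPM in D13 and 27.7 to 38.8 CPM in abdomens (0.72 ± 0.17, adjusted p = 0.00039), and the difference without D13 was 0.40. Gene counts do not tell sex-specific splice forms apart.

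Muscle genes were higher in abdomens in 2 of 3 cases, against 32.5% of all genes. Tropomyosin 1 was at 2414, 2147, 1689, 1533 and 1257 CPM in abdomens and at 476, 1014, 603, 414 and 1073 CPM in heads (Tm1, -1.34 ± 0.21, adjusted p = 7.9e-07). Zasp66, a Z-disc protein gene, was called in the same direction (-1.43 ± 0.31, adjusted p = 0.00012), although its lowest abdomen overlapped the heads. The second tropomyosin gene, Tm2, was not called by edgeR's quasi-likelihood test, at 58.1 to 100.8 CPM in heads and 56.7 to 67.1 CPM in abdomens (0.17 ± 0.11, adjusted p = 0.18), but was called higher in heads on TPM (0.38, adjusted p = 0.0042).

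The tissue difference was next tested against that of F3 haploid males. For 423 genes (3.53%) it differed: it was more towards heads in the diploids for 255 (2.13%) and more towards abdomens for 168 (1.40%). On TPM the counts were 167 and 276, with the median gene at -0.22 against 0.02 in the count test, so the share of calls towards heads was 37.7% against 60.3%. Without D13 there were 203 and 218 genes. In all, 215 genes were called with only the groups compared in the fit, 667 by DESeq2, 254 without D5, 264 without D1A and 265 without D19.

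Few of the genes named above were among them. Cbp showed the clearest dependence towards the abdomen. In F3 diploid males it was at 8.79 to 18.2 CPM in heads and 30.1 to 72.5 CPM in abdomens, whereas in F3 haploid males it was at 14.6 to 22.5 CPM in heads and 11 to 14.4 CPM in abdomens. The diploid difference lay 2.10 below the haploid difference on the log2 scale (-2.10 ± 0.30, adjusted p = 5e-05; -1.98 without D13). The receptor gene nAChRa11 differed in the same direction by -1.16 ± 0.26 (adjusted p = 0.01), with diploid heads at 43.1 to 76.1 CPM and haploid heads at 66.3 to 99.1 CPM.

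Proteases and a transferase differed the other way. SP137 was at 23.3 to 194 CPM in diploid heads and 5.48 to 15.5 CPM in haploid heads, and at a median of 298 CPM in diploid and 816 CPM in haploid abdomens (4.12 ± 0.74, adjusted p = 0.0012; 3.35 without D13). GstS5 had haploid heads at 26 to 49.2 CPM, below every diploid head (2.27 ± 0.47, adjusted p = 0.0049), and the value without D13 was 1.36 (adjusted p = 0.0052). SP7 had no count in the 5 haploid heads and was at 0.339 to 4.44 CPM in the diploid heads, the highest being D13 (adjusted p = 0.013, and 0.051 without D13). SPH103 was at 842 to 1470 CPM in diploid abdomens and 1341 to 7854 CPM in haploid abdomens (2.65 ± 0.65, adjusted p = 0.018), and its call was lost without D13 (2.01, adjusted p = 0.057).

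Against F15 diploid males the tissue difference changed for 1319 genes (11%), more towards heads in F3 for 713 (5.95%) and more towards abdomens for 606 (5.06%). On TPM the counts were 220 and 2090, with the median gene at -0.36 against 0.04. TPM differs from the count test in its length correction and in having no TMM scaling. Which of these moved the median was not tested. Without D13 there were 1739 genes, and 1711 without D13 and the F15 abdomen library D119 together. This last choice was made after the data were seen. With only the groups compared in the fit 323 genes were called.

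Head genes appeared unevenly in the F15 diploid male abdomens. Lop1 was at 15.7, 0.438, 3.91, 328 and 0.401 CPM in abdomens D116 to D120, where every F3 diploid abdomen was at or below 0.535 CPM, while the F15 heads, at 2156 to 6901 CPM, overlapped the F3 heads. CYP9AG7 was at 9.43, 0.109, 24.9, 1124 and 2.18 CPM in the same abdomens and Pdf at 0.495, 0, 0.0483, 8.21 and 0.446 CPM. D119 was the highest abdomen for each. The F3 difference exceeded the F15 difference by 7.76 ± 1.50 for Lop1 (adjusted p = 0.0012) and 11.17 ± 1.95 for CYP9AG7 (adjusted p = 0.00041). Without D119 the values were 4.01 (adjusted p = 0.01) and 6.50 (adjusted p = 0.0019), and on TPM neither was called by limma (adjusted p = 0.13 and 0.078). For Pdf the call of 4.16 ± 1.10 (adjusted p = 0.013) was lost without D119 (1.43, adjusted p = 0.33). The summed level of the 3 eye genes was 329 CPM in D119, nearly all of it Lop1. It was 0.802 to 16.6 CPM in the other F15 diploid abdomens and 1.09 to 3.5 CPM in those of F3. The 23 synapse genes did not share this as a sum, in which genes well above 0 in abdomens, such as Syt1, weigh most. The summed level of that list was 278 CPM in D119 and 230 to 314 CPM in the other F15 diploid abdomens. It was 394 to 435 CPM in those of F3. In D119 2 of the 23 synapse genes lay above every F3 diploid abdomen, and 2 to 4 did in the other F15 diploid abdomens. Dop2, a member of that list, was at 3.17 CPM in D119 and 0.109 to 0.49 CPM in those others. LOC107981322 was at 76.9 CPM in D119 and 0.267 to 1.24 CPM in the others. What raised Lop1, CYP9AG7, Pdf, Dop2 and LOC107981322 in D119 was not tested.

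CPR48 was lower in the F15 heads and higher in some F15 abdomens than in F3. F15 diploid heads were at 117.5, 203, 1298, 395 and 183 CPM, all below the lowest F3 diploid head at 4309 CPM. F15 diploid abdomens were at 0.141, 0, 3.96, 33.8 and 2.09 CPM, against at most 0.381 CPM in F3 diploid abdomens. The difference of 11.38 ± 1.64 (adjusted p = 7.6e-05) was 8.24 without D13 and D119 (adjusted p = 0.00018). F3 haploid heads were at 2342 to 14770 CPM, and the difference between F3 diploid and haploid males was not called by edgeR's quasi-likelihood test (1.20 ± 2.41, adjusted p = 0.85). The cuticle gene apd-3 was at 3.96 to 13.6 CPM in F3 heads and 0.529 to 3.07 CPM in F15 heads. Its F15 abdomens were at 0.565, 0.547, 25.4, 37.4 and 19 CPM, against at most 0.954 CPM in F3 abdomens. The F3 difference exceeded the F15 difference by 7.67 ± 1.11 (adjusted p = 7.6e-05; 7.13 without D119). F3 and F15 were not tested against each other within a tissue.

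**Figure D5:**
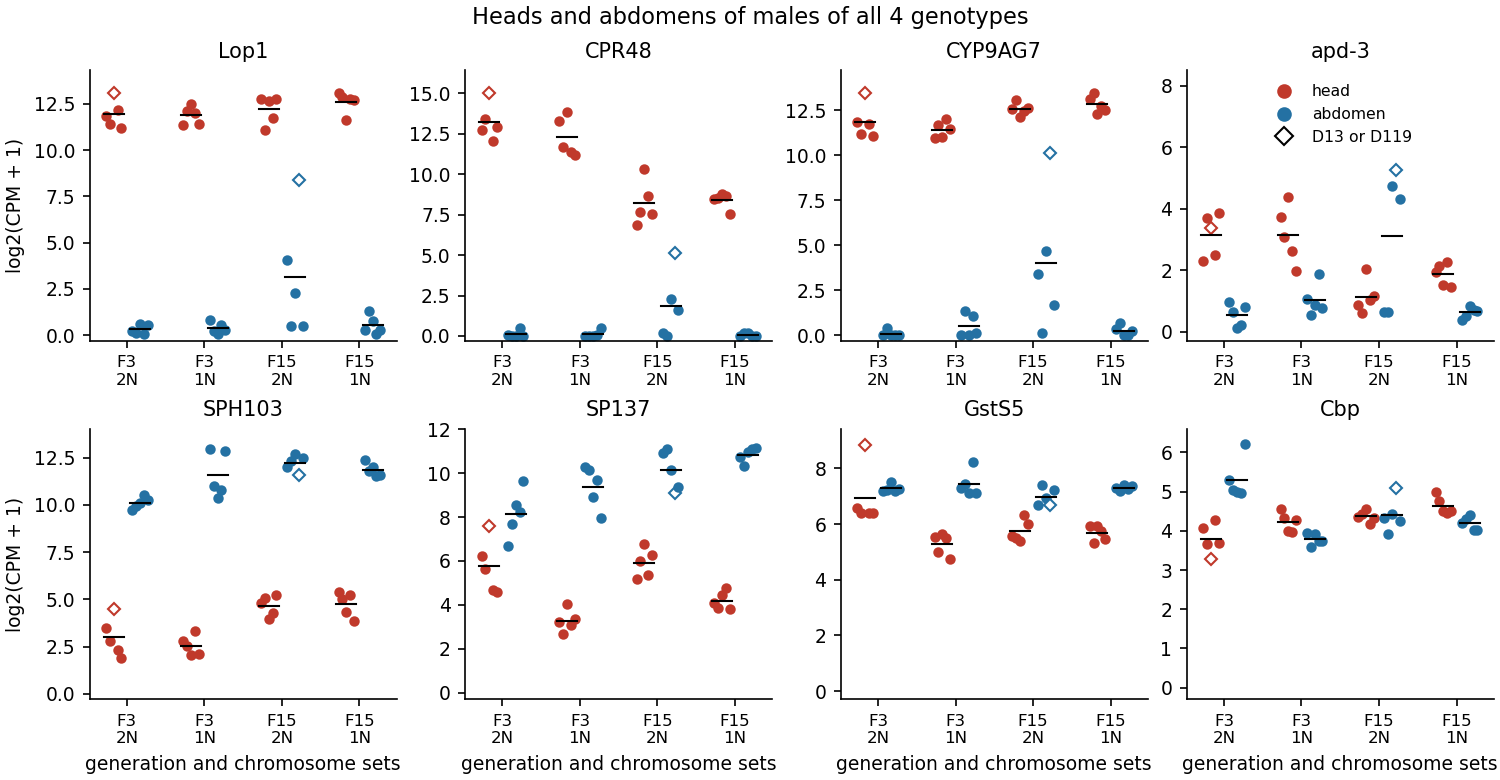
Levels of 8 genes as log2(CPM + 1) in heads (red) and abdomens (blue) of males of 4 genotypes, by generation and number of chromosome sets, with 5 libraries a group, bars for the mean and open diamonds for the head library D13 and the abdomen library D119. Lop1 and CYP9AG7 reach 328 and 1124 CPM in D119, CPR48 is lower in F15 than in F3 heads, and Cbp is highest in F3 diploid abdomens.

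Other genes differed towards abdomens in F3. Neural genes were among them: Pka-C1 was at 141 to 221 CPM in 4 F3 heads and 76.9 CPM in D13, and at 250 to 434 CPM in F15 heads, while 3 F15 abdomens (D118 to D120) were at 3.31 to 7.93 CPM and the other two at 21.8 and 27.4 CPM (-1.81 ± 0.48, adjusted p = 0.013). GluCl differed by -1.78 ± 0.48 (adjusted p = 0.015) and nAChRa11 by -1.38 ± 0.26 (adjusted p = 0.0011). In all, 4 of the 23 synapse genes differed in this direction, against 5.06% of all genes, and 1 in the other, against 5.95%. That 1 gene was Dop2 (3.33 ± 0.81, adjusted p = 0.0074 by edgeR, and 2.02 without D119). Without D13 the synapse counts were 8 and 1, and those over all 12082 genes tested were 806 and 933. Dop2 was not called on TPM (0.36, adjusted p = 0.38 by limma), nor by edgeR with only the groups compared in the fit (adjusted p = 0.051). Of the 64 respiratory chain genes 14 differed towards heads in F3 and none towards abdomens by edgeR's quasi-likelihood test. Over all genes 5.95% and 5.06% did. The median of the list was 0.56, and 0.11 on TPM. Without D13, in which the list lay above the other heads, 7 differed towards heads and 2 towards abdomens, with a median of 0.25. Y-h was at 1.5 to 4.74 CPM in F3 heads and 5.83 to 23.8 CPM in F15 heads (-2.04 ± 0.56, adjusted p = 0.017), and Cbp again differed by -1.54 ± 0.30 (adjusted p = 0.0012).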

How the data were processed

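Bulk RNA-seq of dissected heads and abdomens was deposited for 79 libraries in 16 groups. Per the labels' protocols, libraries came from poly(A)-selected RNA and a NEBNext Ultra kit; per the submitters' processing notes, reads were processed with STAR 2.7.11a and RSEM 1.3.1. The build of the genome is not given in the sources used here. For 14621 genes the authors deposited expected counts, and for 14613 genes TPM, and no column was left without a sample.

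Expected counts were rounded to whole numbers. The 40 male libraries (8 groups) were fitted in edgeR 4.0.16 (R 4.3.3) with TMM scaling, filterByExpr (minimum count 10, minimum total 15) and a robust quasi-likelihood test in a one-way model, which gave the tissue contrast and its differences from F3 haploid and F15 diploid males. P-values were adjusted over all 11981 genes tested. The SE was taken as the absolute log2 difference divided by the square root of the F statistic. The code was tested on simulated counts. No pair of replicates looked like 1 library entered under 2 names (lowest chi-square per degree of freedom 29.7).

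Alternatives were DESeq2 1.42.0, limma 3.58.1 on log2(TPM + 1) and log2(TPM + 0.1) with the same genes, RLE and upper-quartile scaling, no filter, a fit of only the groups compared, a test against 2-fold, and each library left out. Unlike the counts, TPM was not scaled by TMM between libraries. Gene symbols come from RefSeq (Nvit_psr_1.1), which matched all 14621 identifiers; 829 are more than a LOC identifier. The 23 gene lists were matched by symbol alone. Members and lists were chosen with earlier results of these data known, and the lists were trimmed to symbols present. Named genes were, per direction, the 8 largest log2 differences and the 8 largest differences in CPM among called genes without overlap and with at least 20 CPM in the higher tissue (at most 2 LOC loci each), up to 6 called genes per list with at least 5 CPM, the 4 largest per interaction and direction, and Tra, Dsx, Fru, Lop1, Pdf, Syt1, Akhr, Tm1, Tm2 and Zasp66. Other list members are named as examples or exceptions chosen after their values were seen.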

Additional observations from a re-analysis of the deposited data

Results flagged for a closer look

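In the 5 heads or the 5 abdomens of F3 diploid males, 1 library stood apart from the other 4 for 48 of 216 combinations of named gene and tissue, by Dixon's gap test on log2(CPM + 1). Chance alone flags about 1 in 20 such groups. In 28 of the 48 the library was head D13.

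D13 lay above the other heads for ACP at 148 CPM, CYP6CK13P at 18.3 CPM, Cox6a1 at 1346 CPM, EF-1a at 2119 CPM, Emc at 164 CPM, Gnbp1-2 at 23.3 CPM, GstS2 at 36.8 CPM, GstS5 at 461 CPM, GstS6 at 24.6 CPM, LOC100113557 at 15978 CPM, Ndufv1 at 1074 CPM, Rpl39 at 283 CPM, Rpl41 at 1275 CPM, Rpl6 at 1217 CPM, SP102 at 1.12 CPM, SP68 at 58.3 CPM, Tm2 at 100.8 CPM, Tra at 101.7 CPM, Y-f at 89.9 CPM and Y-x1c at 19.1 CPM. It lay below them for Cenp-a at 5.2 CPM, Nsf at 544 CPM, Ogt at 426 CPM, Poxn at 4.62 CPM, Smc2 at 4.89 CPM, Smc6 at 27.9 CPM, cycB at 0 CPM and pros at 5.47 CPM. The affected genes include ribosomal proteins, respiratory chain subunits and glutathione transferases above, and genes of cell division and neural development below. Its origin was not tested.

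The remaining 20 were spread over other libraries. Abdomen D16 lay above the others for Acpr at 10.1 CPM, Cyb561d1-like at 157 CPM, Dop2 at 0.212 CPM and Uqcrc2 at 208 CPM. Abdomen D16 lay below the others for Pol-iota at 37.8 CPM. Abdomen D17 lay above the others for CYP9AG7 at 0.327 CPM and Pdf at 0.514 CPM. Abdomen D17 lay below the others for GstD1 at 723 CPM, GstS2 at 64.1 CPM and hairy at 26.6 CPM. Abdomen D18 lay above the others for Bora at 5.59 CPM, CCE-D5 at 175 CPM, Cht5 at 907 CPM, GstS5 at 183 CPM and LOC100679671 at 0.0486 CPM. Abdomen D18 lay below the others for Gr3 at 0.632 CPM. Abdomen D19 lay above the others for CPR48 at 0.381 CPM. Abdomen D20 lay above the others for Cbp at 72.5 CPM and Nsf at 200 CPM. Head D15 lay above the others for CPR18 at 25.1 CPM.

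Named genes whose head minus abdomen difference depended on the group were called by the interaction test in edgeR, and the log2 value is the F3 diploid difference minus that of the other males. Against F3 haploid males, the difference lay more towards heads for GstS5 (2.27), GstS6 (1.74), Or140 (2.05), SP137 (4.12), SP7 (8.17) and SPH103 (2.65), and more towards abdomens for Cbp (-2.10) and nAChRa11 (-1.16). Without D13 the calls of GstS6 (0.74, adjusted p = 0.091), Or140 (1.69, adjusted p = 0.087), SP7 (7.01, adjusted p = 0.051) and SPH103 (2.01, adjusted p = 0.057) were lost.

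Against F15 diploid males, the difference lay more towards heads for CPLCP2 (3.17), CPR48 (11.38), CYP314A1 (1.57), CYP6CK11 (1.91), CYP9AG7 (11.17), Dop2 (3.33), GstO2 (0.82), LOC107981322 (6.71), Lop1 (7.76), Pdf (4.16), SDR (2.27), SP120 (2.15), SP7 (5.19), Uqcrc2 (0.96) and apd-3 (7.67), and more towards abdomens for Cbp (-1.54), GluCl (-1.78), Hex109 (-1.64), Ogt (-0.58), Pka-C1 (-1.81), Y-h (-2.04) and nAChRa11 (-1.38). Without D13 the calls of Ogt (-0.45, adjusted p = 0.065), SDR (1.25, adjusted p = 0.16) and SP120 (1.21, adjusted p = 0.067) were lost, and SP7 lay at 4.05. SP7 lay at 4.51 without D117 and 5.84 without D115. Without abdomen D119 those of LOC107981322 (2.34, adjusted p = 0.095), Pdf (1.43, adjusted p = 0.33), Ogt (-0.49, adjusted p = 0.1) and SDR (2.03, adjusted p = 0.076) were lost. On TPM, CYP314A1, CYP6CK11, CYP9AG7, Dop2, GstO2, LOC107981322, Lop1, Pdf and Uqcrc2 were not called (limma, adjusted p from 0.078 to 0.88).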

How the results depend on the processing

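Of 2329 comparisons of a gene's value under an alternative setting with its reported value, over 122 results, 2270 kept direction and call, 56 kept direction but lost the call, 2 gained a call and 1 reversed: GstS5, from 0.06 to -0.85 without D13, while leaving out other F3 diploid libraries gave up to 0.22. Where neither value was called, a change of sign was counted as kept. The count of tissue differences was 3807 when tested against a 2-fold change (glmTreat), and otherwise ran from 6442 with only these 10 libraries in the fit to 8374 without D13. Against F3 haploid males, 215 genes were called with only the groups compared in the fit, 667 by DESeq2 and 254 to 421 when a library was left out, the lower counts being 254 without D5, 264 without D1A and 265 without D19. Against F15 diploid males, 323 genes were called with only the groups compared in the fit, 2310 on log2(TPM + 1) and 2173 on log2(TPM + 0.1), while leaving out a library gave 937 to 1739. The cause was not tested. With only the groups compared in the fit, the calls of CPLCP2 (adjusted p = 0.054), Dop2 (0.051), GluCl (0.061), LOC107981322 (0.064), Ogt (0.2), Pdf (0.11), Pka-C1 (0.091), SDR (0.12), SP120 (0.13), SP7 (0.051), Uqcrc2 (0.095) and Y-h (0.093) against F15, of GstS5 (0.055), GstS6 (0.16), Or140 (0.1), SP7 (0.053) and SPH103 (0.087) against F3 haploids, and of Bora (0.054), Def1-2 (0.057), Pol-iota (0.082), Rpl39 (0.093), Rpl41 (0.17), Rpl6 (0.22) and Rpl7a (0.29) between tissues were lost. Other scaling (RLE or upper quartile) and omission of the filter left the tissue counts between 7898 and 8160. No paired analysis was possible because the library names of heads and abdomens share no numbers. Depth did not limit abundant genes, but below about 1 CPM a value rests on few counts, and 5 libraries a tissue with 1 standing apart set the precision.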
